A study of Mus musculus with 12 samples.

Results

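The TGF-beta and BMP pathway genes were followed in adipocyte precursor cells, the fibroblast-like cells of fat tissue that can become fat cells. They were taken from the count table by their symbols: TGF-beta, BMP, GDF and activin ligands, their receptors, the latent TGF-beta binding proteins, 8 secreted antagonists and the Smads. All 48 symbols that matched had 10 or more counts in at least 3 libraries, so 48 of 14398 genes were members. They comprised 17 ligands, 11 receptors, 4 latent binding proteins, 8 secreted antagonists and 8 Smads.

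The cells came from male C57Bl6/J mice of 6 to 8 weeks and were sorted as negative for the blood marker CD45 and the endothelial marker CD31 and positive for CD29, CD34 and Sca1; both CD24-negative and CD24-positive cells were taken. VWAT_HFD and VWAT_SD were precursors of perigonadal, visceral fat after 3 days of a high-fat diet made with lard or on standard diet. SWAT_HFD and SWAT_SD were the same from inguinal, subcutaneous fat. Each group had 3 libraries of poly(A) RNA, each pooled from 3 mice. The labels give the SD libraries as day 0 and the HFD libraries as day 3, so the day of collection and the diet cannot be told apart.

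Ligands of the superfamily bind pairs of type I and type II receptor kinases at the cell surface. TGF-beta, activin and some GDF receptors pass the signal to Smad2 and Smad3, and BMP receptors to Smad1, Smad5 and Smad8, the product of Smad9. These join Smad4 in the nucleus, while Smad6 and Smad7 block the receptors. Noggin, chordin, gremlins and follistatins bind ligands outside the cell, and latent TGF-beta binding proteins hold TGF-beta in the matrix. In fat, BMP2 and BMP4 favour commitment to the fat lineage and BMP7 favours brown fat, whereas TGF-beta and activin A restrain the differentiation of precursors.

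Gene counts per library ran from 17630284 to 56094076. Levels are CPM (counts scaled to a common library total) after scaling by the trimmed mean of M values, as mean ± SD of 3 libraries. Changes were tested with edgeR's quasi-likelihood test over 14266 genes, and a gene rose or fell where its Benjamini-Hochberg adjusted p was under 0.05. VWAT_HFD replicate 3 stood apart from its group: its 16 mitosis markers summed to 139 CPM, within a group range of 139 to 545 CPM, against 35.8 to 50.6 CPM in VWAT_SD. SWAT_HFD replicate 2 had the highest summed leukocyte markers, 46.5 CPM, with 13.6 CPM as the lowest in its group and 12.6 to 15.4 CPM in SWAT_SD. The sorted markers Ly6a (Sca1), Cd34 and Itgb1 (CD29) and the mesenchymal markers Pdgfra and Dpt were present in every library. With RNA of whole cell pools, fewer cells of a type and less RNA per cell cannot be told apart.

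Divided by exon length, the precursors' pathway transcripts were dominated by Fstl1, a secreted glycoprotein of the follistatin-like family. It had 1230 ± 465 CPM per kb in VWAT_HFD, 566 ± 79.3 in VWAT_SD, 1170 ± 226 in SWAT_HFD and 684 ± 50 in SWAT_SD (n = 3 each), the highest of the 48 in all 4 groups. Ltbp4, a latent TGF-beta binding protein of elastic fibres, was next in VWAT with 264 ± 61.9 CPM per kb in VWAT_HFD and 307 ± 6.44 in VWAT_SD. In SWAT it had 38.9 ± 6.17 CPM per kb on HFD and 51.5 ± 2.13 on SD, the rank of 7 and 5 among members. Gdf10, a BMP3-related ligand, led the ligands in every group, from 98.6 ± 14.9 CPM per kb in SWAT_HFD to 127 ± 5.80 in VWAT_SD.

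Among receptors, Tgfbr3, the co-receptor betaglycan, and Tgfbr2, the type II TGF-beta receptor, ranked highest per length in all 4 groups. In VWAT_SD they had 111 ± 4.81 and 87.1 ± 9.80 CPM per kb, ahead of the type I receptors Acvrl1 (ALK1) with 40.6 ± 1.49 and Bmpr1a with 24.0 ± 1.27. Their partner Tgfbr1 had 5.87 ± 0.869 CPM per kb and Bmpr2 had 3.11 ± 0.746. Bmpr1b and Acvr2b were at the low end in every group, at most 0.318 ± 0.0606 and 0.285 ± 0.0907 CPM per kb. Smad4 and Smad3 led the Smads, with 21.5 ± 0.738 and 16.0 ± 0.822 CPM per kb in VWAT_SD, and Smad9 was lowest with 0.500 ± 0.0297. Next to each other in VWAT_SD, Smad5 with 9.87 ± 1.40 and Smad1 with 9.60 ± 1.20 CPM per kb lay within their SDs. Lengths are of merged exons in GENCODE M21, not of the isoforms present.

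**Figure D1:**
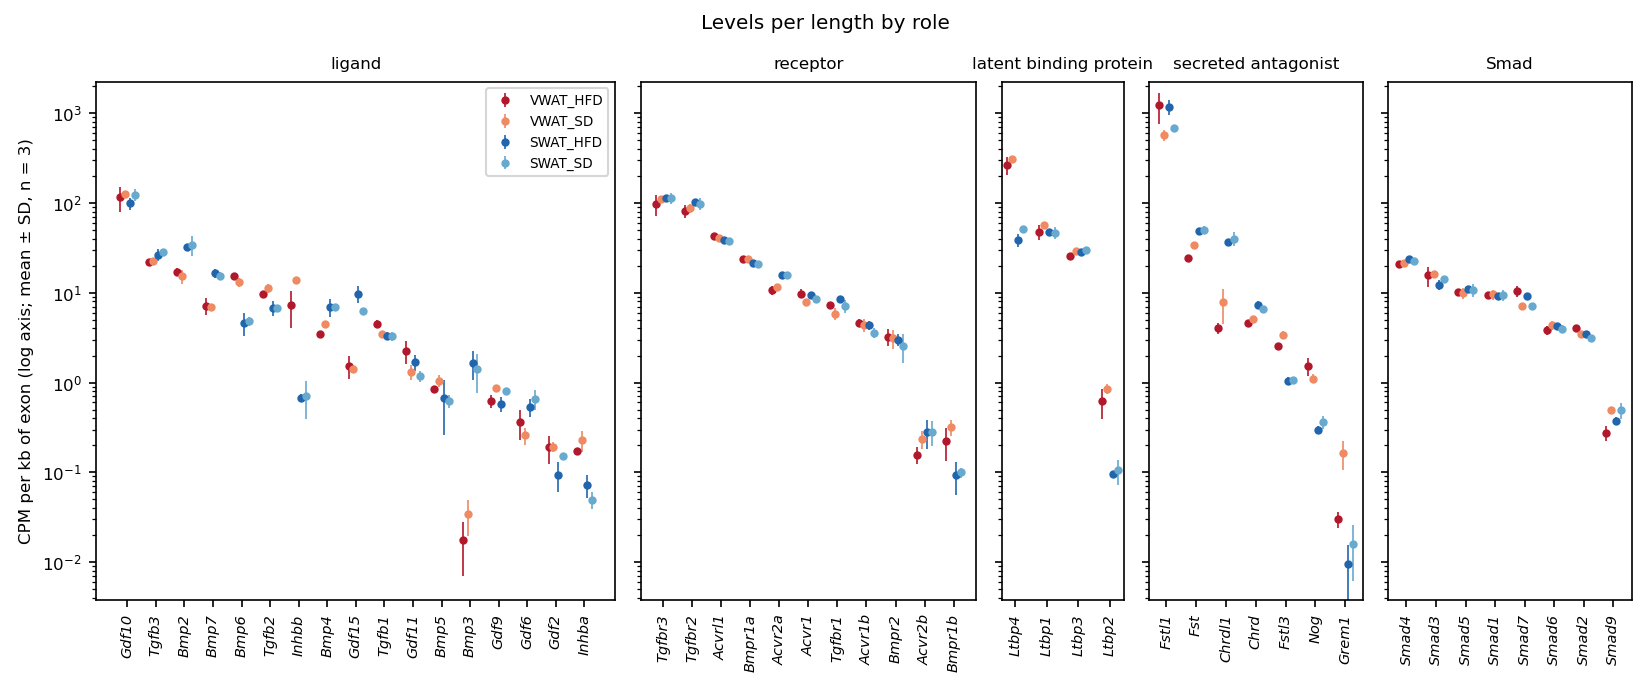
Level per kb of exon (log axis) of members by role in VWAT_HFD, VWAT_SD, SWAT_HFD and SWAT_SD; points are means and bars SD of 3 libraries. Fstl1 lies above all others in each group, and Bmp3 and Ltbp4 show the depots far apart.

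After 3 days of HFD in VWAT precursors, 11 of 48 members passed the test, 4 higher and 7 lower. Smad7, the inhibitory Smad, Tgfb1, Gdf11 and Fstl1 rose. Of the 8 secreted antagonists 5 fell, among them Grem1, Chrdl1, Fst and Fstl3, as did Inhbb, the subunit of activin B, and the BMP-activated Smad9. Over all genes the test called 15.6%, against 22.9% of members. The share of members that rose, 8.33%, was near the 8.64% of all genes, and 14.6% of members fell against 6.98% of all genes. The median log2 change was -0.11 over members, -0.44 over the antagonists and -0.02 over all genes.

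Grem1, a BMP antagonist, had 6, 6 and 7 counts in VWAT_HFD replicates 1 to 3, against 56, 25 and 30 in VWAT_SD. Its levels were 0.101, 0.120 and 0.151 CPM in VWAT_HFD and 0.952, 0.529 and 0.554 CPM in VWAT_SD. The groups did not overlap, and the highest HFD library was well under the lowest SD library, at low counts throughout. Grem1 was 5.46-fold lower (log2 change -2.45, SE 0.40, adjusted p = 0.00208), and the ratio of the summed counts, HFD over SD, was 0.176 with a 95% counting interval of 0.102 to 0.288. Such intervals cover counting error only.

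Chrdl1, a chordin-like BMP antagonist, had 31.6, 24.8 and 25.5 CPM in VWAT_HFD, against 67, 27.2 and 63.7 CPM in VWAT_SD. VWAT_SD replicate 2 was low and lay among the HFD libraries, so the groups overlapped. Chrdl1 was 1.93-fold lower (log2 change -0.95, SE 0.26, adjusted p = 0.0266). Without VWAT_HFD replicate 2, without VWAT_SD replicate 1 or 3, or in a fit of only the 6 libraries compared, it did not pass.

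Fst encodes follistatin, which binds activins. It had 121, 108 and 110 CPM in VWAT_HFD, against 151, 156 and 163 CPM in VWAT_SD, with no overlap and little spread in either group. It was 1.39-fold lower (log2 change -0.47, SE 0.09, adjusted p = 0.00619). Fstl3, which also binds activins, had 5.75, 6.5 and 6.47 CPM in VWAT_HFD and 7.64, 7.93 and 9.27 CPM in VWAT_SD. It was 1.33-fold lower with an adjusted p of 0.0427, and the call was lost in 10 of 20 alternative settings. The ligand side of activin B fell as well: Inhbb had 19.7, 26.7 and 46.5 CPM in VWAT_HFD, against 62.6, 59.7 and 53.5 CPM in VWAT_SD. HFD replicate 3 was nearest to SD. Inhbb was 1.90-fold lower (log2 change -0.92, SE 0.27, adjusted p = 0.0378), and 10 of 21 alternatives ended the call.

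The other 3 antagonists did not fall past the test. Fstl1 had 7350, 7330 and 3380 CPM in VWAT_HFD, against 3210, 2680 and 2450 CPM in VWAT_SD. Replicates 1 and 2 on HFD were far above SD, and replicate 3 lay just above its highest library. Fstl1 was 2.16-fold higher (log2 change 1.11, SE 0.25, adjusted p = 0.0109), with an adjusted p of 0.0616 without VWAT_HFD replicate 2 and 0.0572 without VWAT_SD replicate 3. The BMP antagonists Nog (2.61 ± 0.610 CPM in VWAT_HFD and 1.89 ± 0.213 CPM in VWAT_SD, adjusted p = 0.127) and Chrd (28.6 ± 2.17 CPM and 32.0 ± 2.01 CPM in the same order, adjusted p = 0.265) did not pass.

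Among the Smads, Smad7 had 42.6, 54.4 and 44.7 CPM in VWAT_HFD, against 34.0, 32.6 and 29.5 CPM in VWAT_SD. Every HFD library was above every SD library. Smad7, which TGF-beta itself induces, was 1.47-fold higher (log2 change 0.56, SE 0.11, adjusted p = 0.00466). Smad9 had 1.16, 1.61 and 1.68 CPM in VWAT_HFD and 2.82, 2.73 and 2.51 CPM in VWAT_SD, again with no overlap. It was 1.82-fold lower (log2 change -0.86, SE 0.19, adjusted p = 0.00988). The other signalling Smads, and Smad6, did not pass, and the lowest adjusted p among them was 0.0592 for Smad2 (35.7 ± 2.03 CPM in VWAT_HFD and 30.2 ± 2.10 CPM in VWAT_SD).

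Of the TGF-beta ligands, Tgfb1 had 20.5, 23.7 and 24.5 CPM in VWAT_HFD, against 18.4, 16.9 and 16.7 CPM in VWAT_SD, without overlap. It was 1.32-fold higher (log2 change 0.40, SE 0.11, adjusted p = 0.0245). Scaled by library size alone its adjusted p was 0.0915, and it was 0.107, 0.0837 and 0.0929 without VWAT_HFD replicate 2, VWAT_SD replicate 2 and VWAT_SD replicate 3. Tgfb2 (55.7 ± 5.38 CPM in VWAT_HFD and 65.1 ± 7.14 CPM in VWAT_SD) and Tgfb3 (73.7 ± 5.55 CPM in VWAT_HFD and 75.4 ± 1.87 CPM in VWAT_SD) did not pass. Gdf11, a GDF close to myostatin, had 10.6, 10.6 and 6.04 CPM in VWAT_HFD, against 6.36, 5.5 and 4.26 CPM in VWAT_SD. HFD replicate 3 lay among the SD libraries. Gdf11 was 1.69-fold higher (log2 change 0.76, SE 0.22, adjusted p = 0.0384), a call lost in 6 of 21 alternatives.

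No receptor and no latent binding protein passed in VWAT. The type I receptors Acvr1 (47.4 ± 5.46 CPM in VWAT_HFD and 38.3 ± 3.19 CPM in VWAT_SD, adjusted p = 0.053) and Tgfbr1 (48.2 ± 1.70 CPM in VWAT_HFD and 38.4 ± 5.67 CPM in VWAT_SD, adjusted p = 0.103) came nearest. All 4 latent binding proteins had log2 changes below 0, between -0.46 for Ltbp2 and -0.18 for Ltbp3. Among ligands that did not pass, Bmp4 had 7.85 ± 0.572 CPM in VWAT_HFD and 10 ± 0.629 CPM in VWAT_SD (adjusted p = 0.121). Gdf9 had 1.27 ± 0.210 CPM in VWAT_HFD and 1.79 ± 0.104 CPM in VWAT_SD (adjusted p = 0.0878). Libraries did not overlap for 7 members that were higher and 9 that were lower, 14.6% and 18.8% of members, against 15.5% and 17.5% of all genes.

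**Figure D2:**
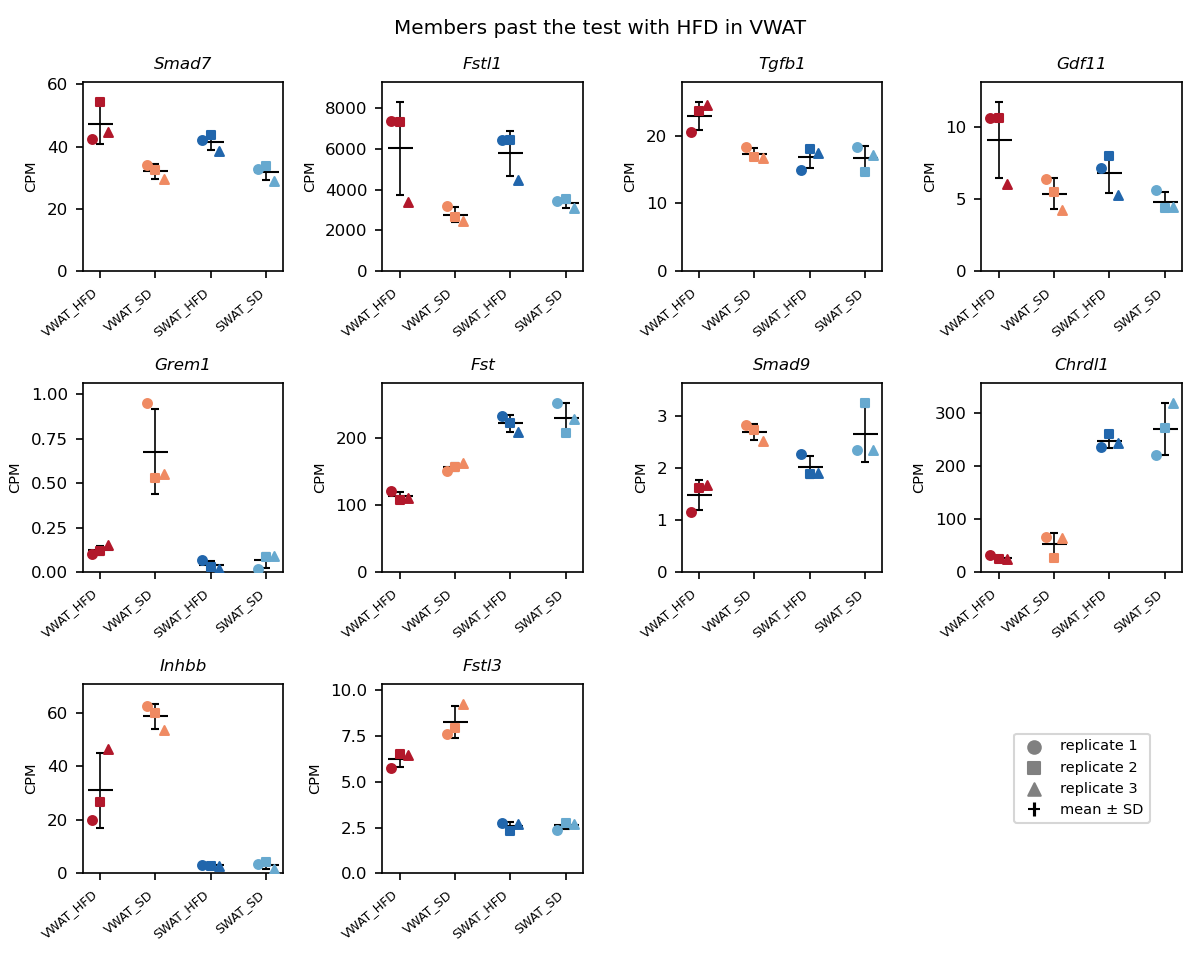
CPM in each library of members that passed the test between VWAT_HFD and VWAT_SD, with SWAT_HFD and SWAT_SD beside them; each panel has its own axis from 0, symbols mark replicates and lines the mean ± SD. Grem1, Fst, Smad7 and Smad9 show VWAT_HFD apart from VWAT_SD in every library, and replicate 3 of VWAT_HFD lies nearest to SD for Fstl1, Inhbb and Gdf11.

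The calls of Grem1, Fst, Smad7 and Smad9 held under every alternative that tested them. The count of 11 was 16 without VWAT_HFD replicate 3, when all 11 were called together with Gdf9, Ltbp1, Ltbp4, Smad2 and Tgfbr3. It was 4 without VWAT_HFD replicate 2 and 4 without VWAT_SD replicate 3. Of all genes 4266 passed without VWAT_HFD replicate 3, 757 without VWAT_HFD replicate 2 and 967 without VWAT_SD replicate 3, against 2228 with all libraries. All 16 listed mitosis genes rose in VWAT, among them Mki67 with 61.0, 114 and 32.4 CPM in VWAT_HFD, against 9.46, 10.4 and 5.59 CPM in VWAT_SD. In SWAT 12 of the 16 rose with HFD, with sums of 125 to 175 CPM in SWAT_HFD and 21.3 to 33 CPM in SWAT_SD. Of 9 markers of the sort gate and of mesenchymal cells, 3 rose with HFD in VWAT and 0 in SWAT. The sum of the 9 was 12500 to 21000 CPM in VWAT_HFD and 9980 to 11300 CPM in VWAT_SD. In SWAT it was higher on HFD as well, 37900 to 72200 CPM in SWAT_HFD and 29000 to 31200 CPM in SWAT_SD. Col1a1 had the highest level of the 9 in every library. Of the other listed markers, 2 mural markers rose and 2 fell with HFD in VWAT. In each of the leukocyte, mesothelial, Schwann and mature adipocyte lists 1 fell, and no endothelial marker passed. The leukocyte markers summed to 7.96 to 11 CPM in VWAT_HFD and 11.6 to 18.2 CPM in VWAT_SD. The Schwann markers summed to 6.76 to 9.01 CPM and 9.54 to 12.9 CPM in the same order. The part of cycling cells, of the gate markers or of these other markers in the members' changes was not tested.

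Promoter sequences, the 250 bases before the transcript start from RefSeq on GRCm38.p6, are shown for 5 of the 11 members, 2 that rose and 3 that fell, so that the genes that moved can be read beside their values. Each is printed 5′ to 3′ on the gene's strand. Capitals mark the Smad box CAGAC, which reads GTCTG on the other strand, and GGCGCC, a motif bound by BMP Smads, both searched on either strand; matches can overlap by 1 base.
Fstl1, chr16:37776805-37777054, plus strand: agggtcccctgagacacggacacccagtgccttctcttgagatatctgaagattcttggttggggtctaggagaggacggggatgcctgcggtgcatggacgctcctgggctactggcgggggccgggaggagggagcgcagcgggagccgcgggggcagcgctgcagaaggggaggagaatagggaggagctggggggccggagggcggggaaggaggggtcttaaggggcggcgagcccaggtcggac
Tgfb1, chr7:25686752-25687001, plus strand: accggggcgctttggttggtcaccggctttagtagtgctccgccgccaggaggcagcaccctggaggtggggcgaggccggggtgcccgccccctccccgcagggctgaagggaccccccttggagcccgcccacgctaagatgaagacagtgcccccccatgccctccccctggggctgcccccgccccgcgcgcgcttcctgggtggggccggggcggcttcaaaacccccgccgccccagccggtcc
Grem1, chr2:113758649-113758898, minus strand: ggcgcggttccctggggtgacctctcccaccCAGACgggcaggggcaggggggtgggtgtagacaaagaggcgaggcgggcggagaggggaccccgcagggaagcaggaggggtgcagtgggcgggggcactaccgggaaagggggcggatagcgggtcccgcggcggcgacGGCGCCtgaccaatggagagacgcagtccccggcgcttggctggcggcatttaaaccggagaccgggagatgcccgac
Inhbb, chr1:119422249-119422498, minus strand: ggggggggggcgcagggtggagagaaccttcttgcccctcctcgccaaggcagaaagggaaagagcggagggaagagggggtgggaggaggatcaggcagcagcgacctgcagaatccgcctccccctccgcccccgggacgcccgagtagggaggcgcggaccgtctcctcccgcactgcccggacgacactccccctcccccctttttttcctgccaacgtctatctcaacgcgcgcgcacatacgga
Smad9, chr3:54755332-54755581, plus strand: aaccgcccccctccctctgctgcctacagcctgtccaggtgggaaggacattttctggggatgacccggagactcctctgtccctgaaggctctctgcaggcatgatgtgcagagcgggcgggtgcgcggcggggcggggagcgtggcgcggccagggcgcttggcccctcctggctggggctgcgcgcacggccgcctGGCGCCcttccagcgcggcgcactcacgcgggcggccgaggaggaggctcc
The Grem1 window, of the antagonist with the largest fall, held 1 Smad box and 1 GGCGCC, and the Smad9 window held 1 GGCGCC. Those of Fstl1, Tgfb1 and Inhbb held neither set of letters. Of the 2 further windows used, that of Fstl3 held 2 Smad boxes and that of Gdf11 held none. Across 32851 windows of the same length in the RefSeq table, 42.2% held a Smad box and 9.59% held GGCGCC. A match is not a site, and its absence says nothing of Smad binding.

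In SWAT precursors no member passed after 3 days of HFD, where 1.11% of all genes did (0.967% higher and 0.147% lower). DESeq2 called 2 members and limma voom 0, and 4 had an unadjusted p under 0.05. These 4 were Smad7, Gdf15, Fstl1 and Ltbp4. Smad7 had 42.0, 43.8 and 38.6 CPM in SWAT_HFD, against 32.9, 33.8 and 28.9 CPM in SWAT_SD, with no overlap. The ratio was 1.30 (log2 change 0.38, SE 0.11, adjusted p = 0.124). Fstl1 had 6420, 6410 and 4490 CPM in SWAT_HFD and 3460, 3540 and 3080 CPM in SWAT_SD, a ratio of 1.72 (log2 change 0.78, SE 0.25, adjusted p = 0.162). Its adjusted p was 0.00978 without VWAT_HFD replicate 3, which enters only through the shared spread and scaling.

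Gdf15, a stress-induced ligand that acts on the brainstem, had 20.7, 19.7 and 13.7 CPM in SWAT_HFD, against 11.9, 11.6 and 11.4 CPM in SWAT_SD. All HFD libraries were above all SD libraries, and the ratio was 1.54 (log2 change 0.62, SE 0.19, adjusted p = 0.138). Without VWAT_HFD replicate 3 its adjusted p was 0.0261. Ltbp4 had 288, 258 and 209 CPM in SWAT_HFD and 321, 348 and 330 CPM in SWAT_SD (log2 change -0.40, SE 0.16, adjusted p = 0.259). The libraries did not overlap for 7 members that were higher and 5 that were lower, 14.6% and 10.4% of members, against 11.6% and 10.2% of all genes. The median log2 change was 0.00 over members and 0.00 over all genes.

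All 11 members that passed in VWAT had a change of the same sign in SWAT, as did 92.9% of all genes that passed in VWAT. Whether the HFD change differed between the depots was tested as an interaction. No member passed, nor did any of the 14266 genes, 0% called. DESeq2 and limma voom called 0 members, and 6 members had an unadjusted p under 0.05. The lowest p was that of Fst, whose log2 change with HFD was -0.47 in VWAT and -0.05 in SWAT (difference -0.42, 95% interval -0.71 to -0.14, adjusted p = 0.508). For Tgfb1 the log2 changes were 0.40 in VWAT and 0.02 in SWAT, a difference of 0.38 with a 95% interval of 0.05 to 0.71 (adjusted p = 0.617). The other 4 were Nog (0.76), Inhba (-0.94), Chrdl1 (-0.82) and Chrd (-0.31), as log2 differences of VWAT minus SWAT, with adjusted p values of 0.652 to 0.674. For Smad7 the difference was 0.18 with an interval of -0.14 to 0.51, and for Fstl1 it was 0.33 with an interval of -0.43 to 1.09.

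**Figure D3:**
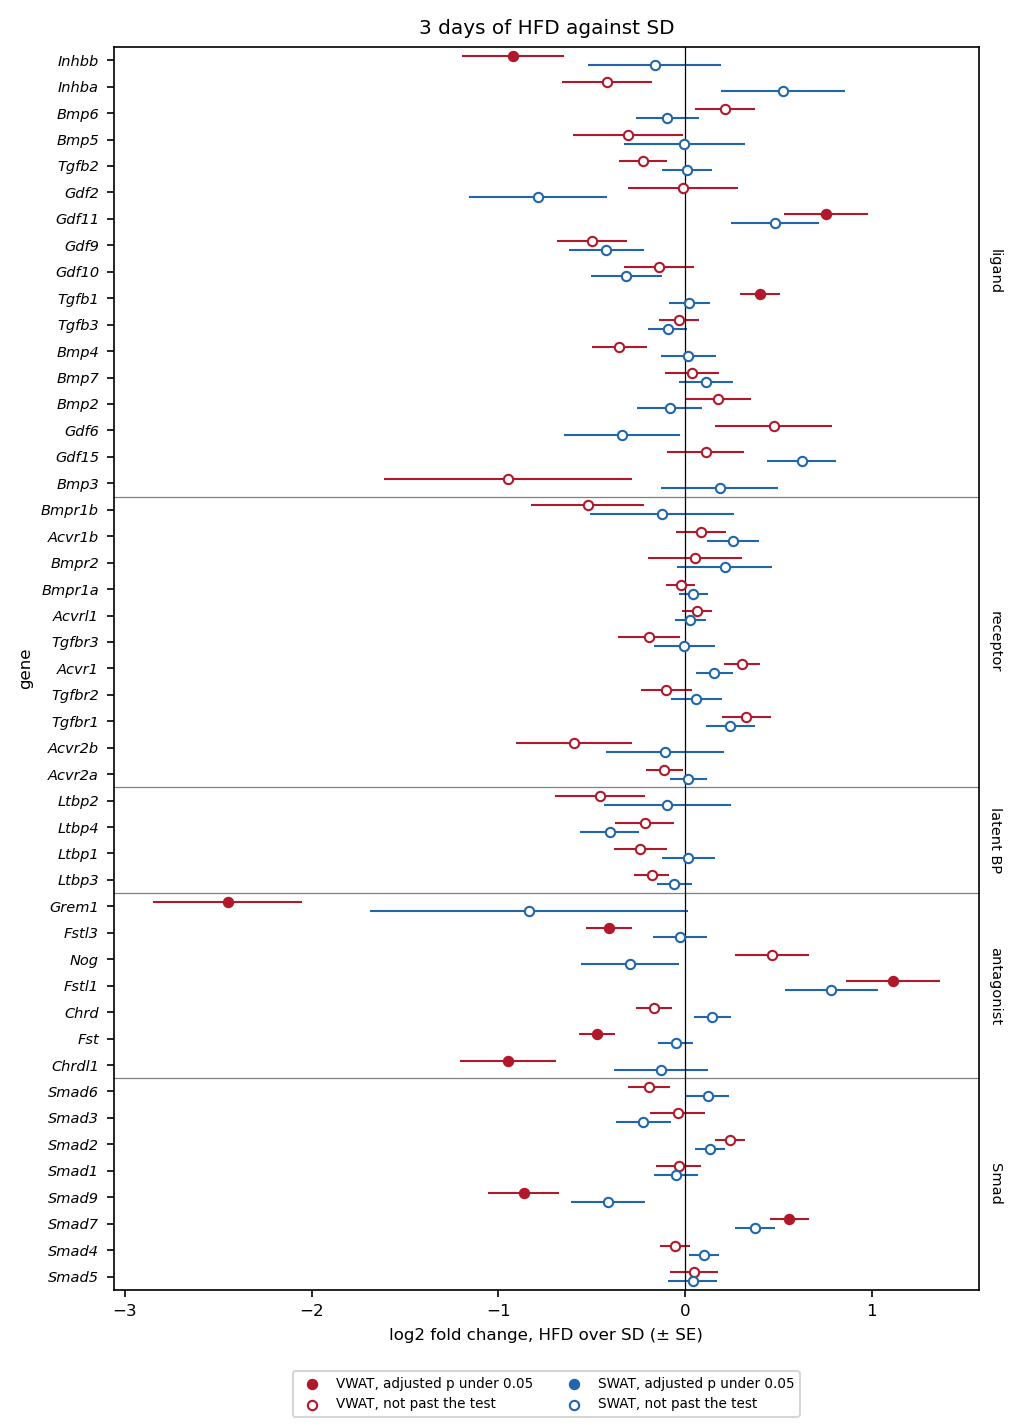
Log2 fold change of HFD over SD (± SE) for members by role in VWAT and in SWAT; filled points passed the test (adjusted p under 0.05) and open points did not. All filled points are of VWAT, and among the antagonists Grem1, Chrdl1, Fst and Fstl3 are filled on the left side.

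Between the depots the members differed more than between the diets. On SD, 22 of 48 members passed between VWAT and SWAT precursors, 10 higher and 12 lower in VWAT, or 45.8% against 25.7% of all genes. On HFD 22 passed as well, 12 higher and 10 lower in VWAT, or 45.8% against 26.8% of all genes. These comparisons share no library but share the spread and scaling of the fit. Of the members, 19 passed in the same direction on both diets, 9 higher and 10 lower in VWAT, which is 86.4% of each list. For all genes the shared part was 73.0% of the SD list and 69.9% of the HFD list. Grem1, Gdf6 and Tgfb3 passed on SD but not on HFD, and Tgfb1, Gdf2 and Smad2 on HFD but not on SD. The median log2 difference over members, VWAT minus SWAT, was 0.04 on SD and 0.06 on HFD, against 0.02 over all genes on each diet.

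The activin subunits were higher in VWAT. Inhbb had 19.7, 26.7 and 46.5 CPM in VWAT_HFD, against 3.21, 2.82 and 2.68 CPM in SWAT_HFD. On SD it had 62.6, 59.7 and 53.5 CPM in VWAT_SD and 3.48, 4.11 and 1.51 CPM in SWAT_SD. The lowest VWAT library was far above the highest SWAT library. Inhbb was 10.8-fold higher in VWAT on HFD (log2 difference 3.44, SE 0.33, adjusted p = 4.24e-06) and 18.3-fold higher on SD (log2 difference 4.20, SE 0.33, adjusted p = 5.35e-07). Inhba, the activin A subunit, was 2.43-fold higher on HFD (1.09 ± 0.0864 CPM in VWAT_HFD and 0.467 ± 0.131 CPM in SWAT_HFD, adjusted p = 0.00462) and 4.67-fold higher on SD (1.45 ± 0.377 CPM in VWAT_SD and 0.316 ± 0.0686 CPM in SWAT_SD, adjusted p = 5.7e-05).

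The BMP and GDF ligands split by depot. Bmp6, a BMP known for its part in iron control, was higher in VWAT, with 59.8 ± 5.67 CPM in VWAT_HFD and 18 ± 5.10 CPM in SWAT_HFD (3.38-fold, log2 difference 1.76, SE 0.17, adjusted p = 4.16e-06). On SD it had 51.5 ± 5.98 CPM in VWAT_SD and 18.8 ± 2.10 CPM in SWAT_SD (2.73-fold, adjusted p = 1.99e-05). Bmp3, a ligand that opposes other BMPs in bone, went the other way. It had 5, 11 and 4 counts in VWAT_HFD and 255, 333 and 446 counts in SWAT_HFD. It had 13, 18 and 9 counts in VWAT_SD and 450, 739 and 149 counts in SWAT_SD. In CPM these were 0.0842 to 0.221 in VWAT_HFD, 9.28 to 17.1 in SWAT_HFD, 0.166 to 0.381 in VWAT_SD and 6.83 to 16.0 in SWAT_SD. No member had a larger difference between depots: Bmp3 was 91.4-fold lower in VWAT on HFD (log2 difference -6.51, SE 0.48, adjusted p = 3.57e-07) and 41.6-fold lower on SD (log2 difference -5.38, SE 0.43, adjusted p = 6.68e-07). The ratio of summed counts on HFD, SWAT over VWAT, was 84.4 with a 95% counting interval of 54.3 to 139.

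Gdf15 had 3.18, 3.43 and 1.94 CPM in VWAT_HFD, against 20.7, 19.7 and 13.7 CPM in SWAT_HFD. On SD it had 2.35, 2.77 and 2.84 CPM in VWAT_SD and 11.9, 11.6 and 11.4 CPM in SWAT_SD. It was 6.26-fold lower in VWAT on HFD (adjusted p = 4.99e-07) and 4.38-fold lower on SD (adjusted p = 3.08e-06). Of the BMPs, Bmp2, Bmp7 and Bmp4 were also lower in VWAT on each diet, unlike Bmp6. Bmp2 had 61.2 ± 6.75 CPM in VWAT_HFD and 115 ± 10.1 CPM in SWAT_HFD (log2 difference -0.90, SE 0.17, adjusted p = 0.00154), and 54.1 ± 9.01 CPM in VWAT_SD and 121 ± 30.4 CPM in SWAT_SD (log2 difference -1.17, SE 0.18, adjusted p = 0.000214). Bmp7 was 2.30-fold lower on HFD (28.8 ± 6.25 CPM in VWAT_HFD and 66.4 ± 7.96 CPM in SWAT_HFD, adjusted p = 3.36e-05) and 2.19-fold lower on SD (28.1 ± 2.26 CPM in VWAT_SD and 61.4 ± 6.18 CPM in SWAT_SD, adjusted p = 5.9e-05). Bmp4 was 1.99-fold lower on HFD (7.85 ± 0.572 CPM in VWAT_HFD and 15.7 ± 3.52 CPM in SWAT_HFD, adjusted p = 0.000217) and 1.54-fold lower on SD (10 ± 0.629 CPM in VWAT_SD and 15.5 ± 1.51 CPM in SWAT_SD, adjusted p = 0.00624).

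The rarer Gdf6, a GDF of joint and skeletal development, was 2.51-fold lower in VWAT on SD (0.913 ± 0.197 CPM in VWAT_SD and 2.32 ± 0.584 CPM in SWAT_SD, adjusted p = 0.00588). On HFD its groups overlapped (1.28 ± 0.475 CPM in VWAT_HFD and 1.87 ± 0.422 CPM in SWAT_HFD, adjusted p = 0.264). Gdf2, which encodes BMP9, had 0.567 ± 0.193 CPM in VWAT_HFD and 0.282 ± 0.103 CPM in SWAT_HFD (adjusted p = 0.0298, overlapping libraries, lost in 6 of 20 alternatives). Of the TGF-betas, Tgfb2 was higher in VWAT on each diet, 1.42-fold on HFD (55.7 ± 5.38 CPM in VWAT_HFD and 39.3 ± 7.36 CPM in SWAT_HFD, adjusted p = 0.0116) and 1.67-fold on SD (65.1 ± 7.14 CPM in VWAT_SD and 39.0 ± 2.54 CPM in SWAT_SD, adjusted p = 0.000806). Its HFD call was lost without VWAT_HFD replicate 2 (adjusted p = 0.0563). Tgfb1 was 1.35-fold higher on HFD (22.9 ± 2.10 CPM in VWAT_HFD and 16.9 ± 1.59 CPM in SWAT_HFD, adjusted p = 0.00962), with 17.3 ± 0.940 CPM in VWAT_SD and 16.7 ± 1.87 CPM in SWAT_SD (adjusted p = 0.774). Tgfb3 was lower in VWAT on SD (75.4 ± 1.87 CPM in VWAT_SD and 95.8 ± 4.92 CPM in SWAT_SD, adjusted p = 0.0261), a call lost in 6 of 21 alternatives. Bmp5, Gdf9, Gdf10 and Gdf11 did not pass on either diet.

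Among the latent binding proteins, Ltbp4 had 1310, 1700 and 2110 CPM in VWAT_HFD, against 288, 258 and 209 CPM in SWAT_HFD. On SD it had 2000, 1940 and 2020 CPM in VWAT_SD and 321, 348 and 330 CPM in SWAT_SD. It was 6.79-fold higher in VWAT on HFD (log2 difference 2.76, SE 0.17, adjusted p = 7.04e-08) and 5.97-fold higher on SD (log2 difference 2.58, SE 0.17, adjusted p = 1.07e-07). These were the lowest adjusted p of any member on either diet. Ltbp2, which binds fibrillin rather than latent TGF-beta, was 6.51-fold higher on HFD (5.09 ± 1.91 CPM in VWAT_HFD and 0.782 ± 0.0179 CPM in SWAT_HFD, adjusted p = 1.44e-05) and 8.37-fold higher on SD (6.98 ± 0.859 CPM in VWAT_SD and 0.861 ± 0.268 CPM in SWAT_SD, adjusted p = 2.9e-06). Ltbp1 and Ltbp3 did not pass: Ltbp1 had 508 ± 96.2 CPM in VWAT_HFD and 506 ± 29.4 CPM in SWAT_HFD.

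The antagonists also divided. Chrdl1 had 31.6, 24.8 and 25.5 CPM in VWAT_HFD and 236, 261 and 244 CPM in SWAT_HFD, 9.04-fold lower in VWAT (log2 difference -3.18, SE 0.28, adjusted p = 1.53e-06). On SD it was 5.13-fold lower (52.6 ± 22.1 CPM in VWAT_SD and 270 ± 49.1 CPM in SWAT_SD, adjusted p = 1.71e-05). Every VWAT library was below every SWAT library. Fst was 1.96-fold lower in VWAT on HFD (113 ± 7.31 CPM in VWAT_HFD and 221 ± 12.4 CPM in SWAT_HFD, adjusted p = 4.94e-06) and 1.46-fold lower on SD (157 ± 5.91 CPM in VWAT_SD and 229 ± 22.9 CPM in SWAT_SD, adjusted p = 0.000682). Chrd was lower on each diet by smaller amounts, 1.60-fold on HFD and 1.29-fold on SD, and the SD call (adjusted p = 0.0132) was lost in 4 of 21 alternatives, among them each fit without VWAT_SD replicate 1, VWAT_SD replicate 2 or SWAT_SD replicate 2.

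Fstl3, Nog and Grem1 were on the other side. Nog had 2.34, 2.19 and 3.31 CPM in VWAT_HFD, against 0.468, 0.495 and 0.562 CPM in SWAT_HFD, 5.02-fold higher in VWAT (log2 difference 2.33, SE 0.24, adjusted p = 7.29e-06). On SD it was 2.96-fold higher (1.89 ± 0.213 CPM in VWAT_SD and 0.622 ± 0.103 CPM in SWAT_SD, adjusted p = 0.000148). Fstl3 was 2.43-fold higher on HFD (6.24 ± 0.429 CPM in VWAT_HFD and 2.57 ± 0.246 CPM in SWAT_HFD, adjusted p = 1.1e-05) and 3.17-fold higher on SD (8.28 ± 0.868 CPM in VWAT_SD and 2.62 ± 0.214 CPM in SWAT_SD, adjusted p = 7.08e-07). Grem1 had 56, 25 and 30 counts in VWAT_SD and 1, 4 and 2 in SWAT_SD, a ratio of summed counts of 11.9 with a 95% counting interval of 5.59 to 30.3 (log2 difference 3.47, SE 0.48, adjusted p = 0.000112). On HFD, with 6, 6 and 7 counts in VWAT_HFD and 1 in each SWAT_HFD library, it did not pass (adjusted p = 0.0765). Fstl1 did not differ past the test between depots, with 6019 ± 2280 CPM in VWAT_HFD and 5775 ± 1110 CPM in SWAT_HFD (adjusted p = 0.895).

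Of the 11 receptors 2 passed between the depots, each on both diets. The type I BMP receptor Bmpr1b, at low levels, was higher in VWAT, 2.37-fold on HFD (1.31 ± 0.524 CPM in VWAT_HFD and 0.556 ± 0.218 CPM in SWAT_HFD, adjusted p = 0.0196, overlapping libraries, lost in 5 of 20 alternatives) and 3.12-fold on SD (1.89 ± 0.359 CPM in VWAT_SD and 0.595 ± 0.0792 CPM in SWAT_SD, adjusted p = 0.00226). The activin type II receptor Acvr2a was lower in VWAT, 1.48-fold on HFD (60.5 ± 6.45 CPM in VWAT_HFD and 89.5 ± 6.14 CPM in SWAT_HFD, adjusted p = 0.000753) and 1.35-fold on SD (65.3 ± 5.79 CPM in VWAT_SD and 88.5 ± 3.89 CPM in SWAT_SD, adjusted p = 0.00476). The other 9 receptors did not pass on either diet. With the replicate number as a block, Tgfbr1 was also called on SD (log2 difference -0.29, adjusted p = 0.049, against 0.125 without the block). Of the 8 Smads, Smad2 passed, on HFD alone (35.7 ± 2.03 CPM in VWAT_HFD and 30.1 ± 1.58 CPM in SWAT_HFD, adjusted p = 0.0405), and the call was lost in 10 of 21 alternatives.

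**Figure D4:**
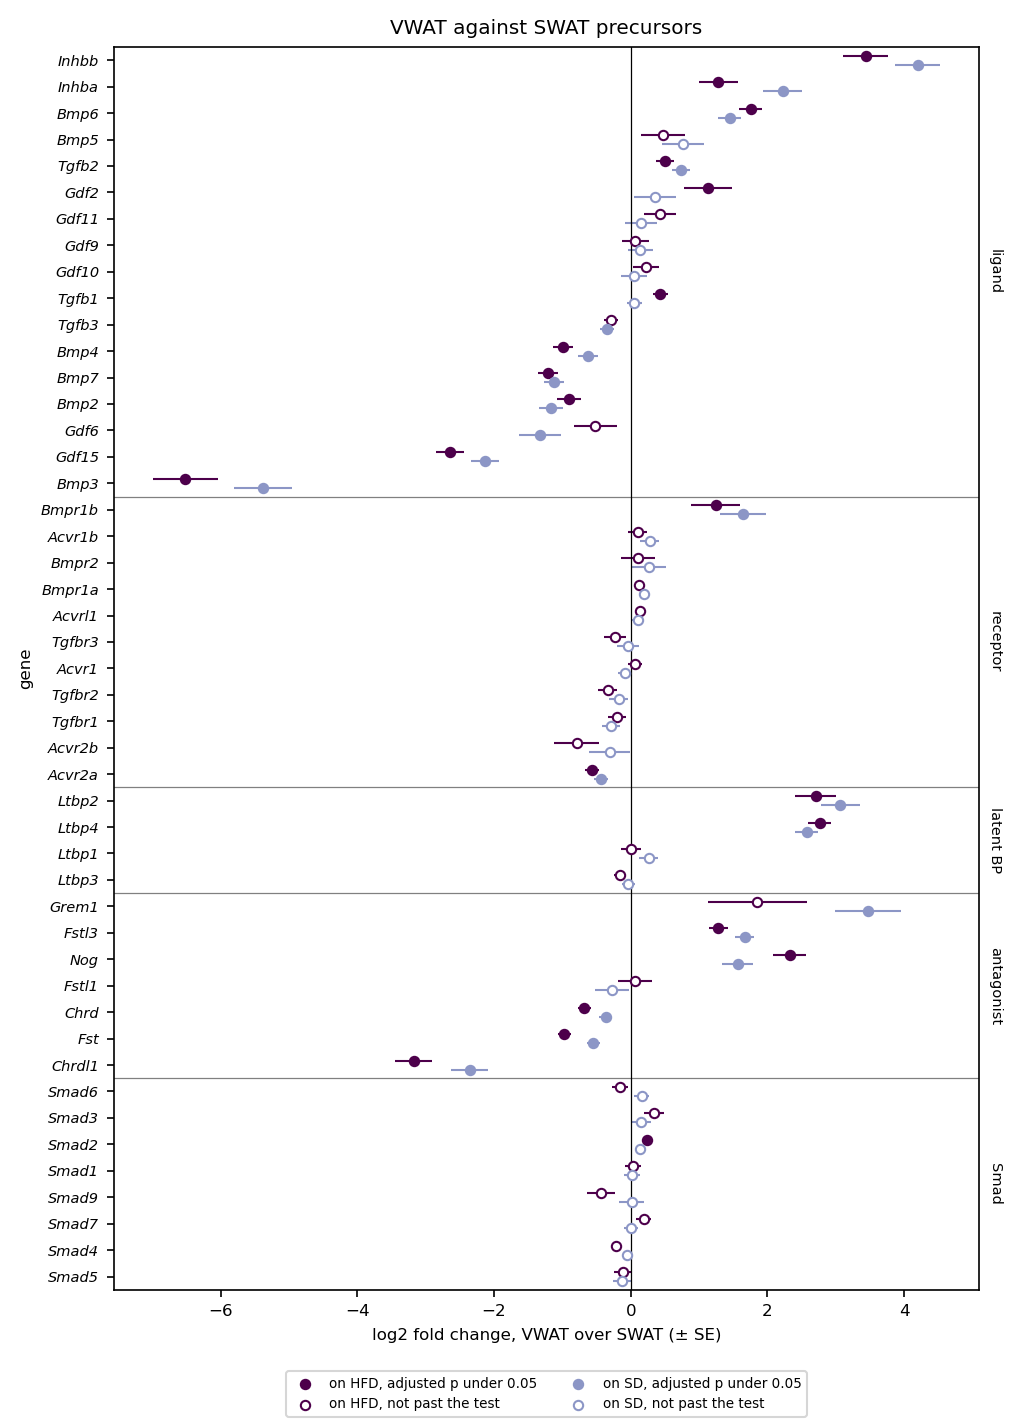
Log2 fold change of VWAT over SWAT (± SE) for members by role, on HFD and on SD; filled points passed the test (adjusted p under 0.05). Inhbb, Ltbp2, Ltbp4, Bmp6, Fstl3 and Nog lie to the right and Bmp3, Gdf15 and Chrdl1 to the left on both diets.

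Scaled by library size alone, the median log2 difference of all genes between VWAT and SWAT was 0.30 on HFD and 0.24 on SD. The members' calls were then 22 higher and 10 lower in VWAT on HFD and 17 higher and 9 lower on SD, while those of all genes were 5830 higher and 1124 lower on HFD and 4279 higher and 1118 lower on SD. Under that scaling the calls of Acvr2a, Chrd and Tgfb3 on SD were lost. For the diet in VWAT it gave 3 members up and 9 down, with 799 of all genes up and 1822 down at a median log2 change of -0.13. Markers of some other cell types moved with the depot. Of 9 endothelial markers 0 passed on SD and 1 was lower in VWAT on HFD. Of 8 mural markers 3 were higher and 3 lower in VWAT on SD, and 3 higher and 2 lower on HFD. The 7 mesothelial markers measured summed to 130 to 157 CPM in VWAT_HFD and 9.63 to 11.5 CPM in SWAT_HFD, and to 155 to 174 CPM in VWAT_SD and 13.0 to 16.4 CPM in SWAT_SD. Of the 7, 5 were higher and 1 was lower in VWAT on each diet. Most of that sum was Wt1 and Rspo1, while the defining marker Msln was at most 1.62 CPM in any library. The 5 Schwann markers measured summed to 6.76 to 9.01 CPM in VWAT_HFD and 34.1 to 36.7 CPM in SWAT_HFD, and to 9.54 to 12.9 CPM in VWAT_SD and 34.8 to 40.6 CPM in SWAT_SD, and 4 of them were lower in VWAT on each diet. On HFD 12 of 16 mitosis markers were higher in VWAT, with sums of 139 to 545 CPM in VWAT_HFD and 125 to 175 CPM in SWAT_HFD, and 4 of 10 leukocyte markers were lower, with sums of 7.96 to 11 CPM in VWAT_HFD and 13.6 to 46.5 CPM in SWAT_HFD. On SD no marker of either list passed. Of the 9 gate and mesenchymal markers 1 was higher and 4 were lower in VWAT on HFD, and 0 were higher and 6 lower on SD. No listed marker was at 0 in every library, and Upk1b was at 0 in the 6 SWAT libraries. The part of such cells and markers in the members' differences was not tested.

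**Figure D5:**
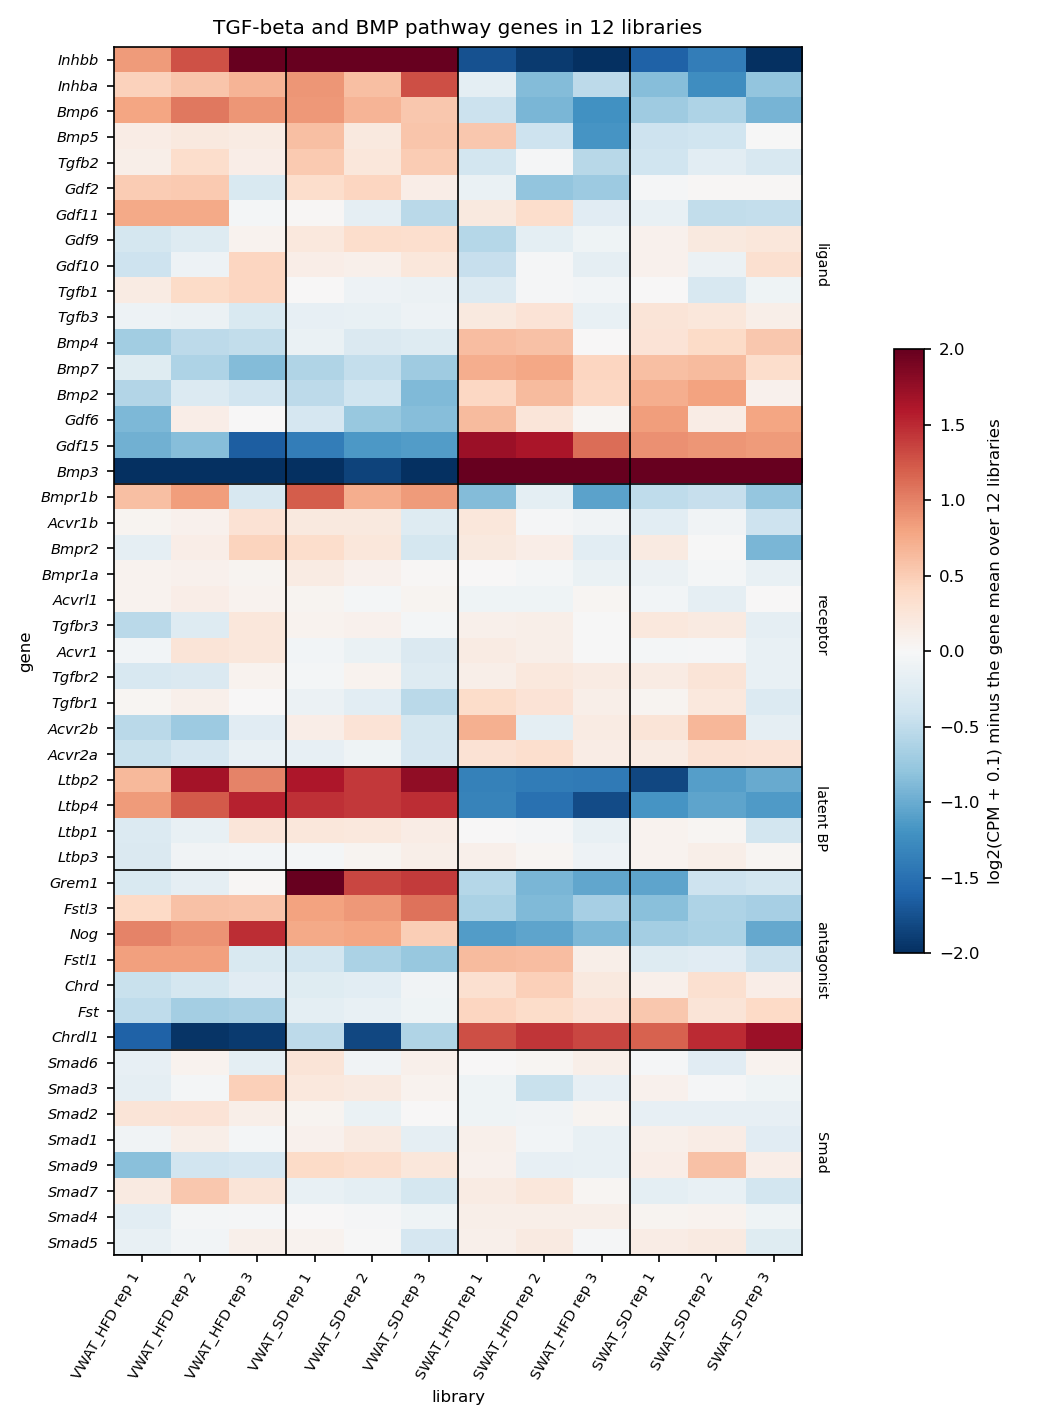
Log2(CPM + 0.1) of members in the 12 libraries, each gene centred on its mean over libraries (colour, limited at -2 and 2), grouped by role and ordered by the SD depot difference. Ligands, latent binding proteins and antagonists show blocks by depot, and every VWAT_HFD library is below every VWAT_SD library for Grem1.

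Genes around the members were read from 6 lists of the pathway. Over all genes 8.64% rose and 6.98% fell with HFD in VWAT, which is the background of each list's counts for that comparison. Of 24 genes that store or activate latent TGF-beta, 8 rose and 1 fell with HFD in VWAT, with a median log2 change of 0.30 against -0.02 over all genes. Thbs1, thrombospondin 1, which can activate latent TGF-beta, was 2.31-fold higher (2294 ± 336 CPM in VWAT_HFD and 995 ± 208 CPM in VWAT_SD, adjusted p = 0.0027). Fbn2, a fibrillin of developing microfibrils, was 9.35-fold higher (54.6 ± 44.6 CPM in VWAT_HFD and 5.83 ± 0.987 CPM in VWAT_SD, adjusted p = 0.00321), with a wide spread on HFD. Adamtsl2, a microfibril protein that binds LTBP1, was 3.65-fold higher (36.0 ± 13.2 CPM in VWAT_HFD and 9.86 ± 0.367 CPM in VWAT_SD, adjusted p = 0.000644), and Itgb3, an integrin subunit, was 1.52-fold higher (adjusted p = 0.0107). The other genes of this list that rose were Fbn1, Furin, Bmp1 and Bgn, and Fmod fell 2.11-fold (adjusted p = 0.0238). The call of Furin, with an adjusted p of 0.0493, was lost in 10 of 21 alternatives, that of Bmp1 in 7, of Bgn in 6, of Fbn1 in 5, of Fmod in 4 and of Itgb3 in 2.

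Of 20 genes known to respond to TGF-beta, 8 rose and 1 fell in VWAT with HFD, at a median log2 change of 0.43 against -0.02 over all genes. Postn, the matrix protein periostin, had 2655 ± 1390 CPM in VWAT_HFD and 838 ± 99.1 CPM in VWAT_SD (3.17-fold, adjusted p = 0.00981). Il11, a cytokine, and Timp1, a protease inhibitor, were 3.16-fold and 2.02-fold higher (adjusted p = 0.00983 and 0.0119). Skil, Tagln, Tnc and Col1a1 rose as well. Tgfbi, named for its induction by TGF-beta, fell 3.16-fold (45.3 ± 10.6 CPM in VWAT_HFD and 143 ± 12.5 CPM in VWAT_SD, adjusted p = 0.000628). Postn and Tnc, like Thbs1 of the latent storage list, also belong to matrix remodelling.

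Of 11 BMP response genes, Id2 fell in VWAT (29.6 ± 3.98 CPM in VWAT_HFD and 53.9 ± 3.49 CPM in VWAT_SD, adjusted p = 0.000869) and none rose. Id1 had 3.91 ± 0.846 CPM in VWAT_HFD and 5.70 ± 0.641 CPM in VWAT_SD (adjusted p = 0.106), and Id3 had 546 ± 125 CPM in VWAT_HFD and 593 ± 57.2 CPM in VWAT_SD (adjusted p = 0.628). Of 23 intracellular regulators, Tgif1, Tgif2, Fkbp1a and Skil rose and Tab1 fell. The call of Tab1, with an adjusted p of 0.0492, was lost in 16 of 21 alternatives, that of Fkbp1a in 7, of Skil in 4 and of Tgif2 in 1. Tgif1 and Skil encode repressors of Smad-driven transcription and were 1.59-fold and 1.58-fold higher (adjusted p = 0.00552 and 0.0356). Of 17 further extracellular modulators, Vasn, a TGF-beta-binding protein, was 1.5-fold higher (adjusted p = 0.00482), and Vwc2 and Wfikkn2 fell 2.97-fold and 2.21-fold (adjusted p = 0.0121 and 0.0335). Of 7 further ligands, Bmp1, a procollagen protease in spite of its name, and Gdnf rose and Artn fell. Gdnf and Artn were at or under 1.04 ± 0.359 CPM in both VWAT groups. In SWAT no gene of the 6 lists passed with HFD, with median log2 changes of 0.25 for latent storage, 0.22 for TGF-beta response and -0.10 for BMP response. Over all genes 1.11% passed there, at a median log2 change of -0.001.

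Between depots, the latent storage list had 8 genes higher and 8 lower in VWAT on HFD, and 9 higher and 7 lower on SD. Over all genes 13.4% were higher and 13.4% lower on HFD, and 13.2% higher and 12.5% lower on SD, which is also the background of the counts of the lists that follow. Itgb8, the subunit of an integrin that activates TGF-beta, was 36.1-fold higher on HFD (15.8 ± 5.27 CPM in VWAT_HFD and 0.397 ± 0.126 CPM in SWAT_HFD, adjusted p = 3.05e-08) and 32.7-fold higher on SD (12.6 ± 1.60 CPM in VWAT_SD and 0.376 ± 0.0784 CPM in SWAT_SD, adjusted p = 3.2e-08). Thbs1 was 6.60-fold higher on HFD and 4.50-fold higher on SD. The integrin subunits Itgb6 and Itgb3 of this list went the other way from Itgb8 and were lower in VWAT on each diet. For Itgb6 the adjusted p was 9.93e-06 on HFD and 1.98e-06 on SD. Its log2 difference on SD ran from -3.45 to -3.06 over the alternatives. The HFD call of Itgb3 was lost in 5 of 21 alternatives. The protease genes Tll1 and Mmp2 were 10.7-fold and 3.12-fold lower in VWAT on HFD, and 8.90-fold and 2.95-fold lower on SD. TGF-beta response genes showed 9 higher and 5 lower on HFD, and 7 higher and 5 lower on SD. Tgfbi was 5.22-fold lower on HFD (45.3 ± 10.6 CPM in VWAT_HFD and 237 ± 44.9 CPM in SWAT_HFD, adjusted p = 4.7e-07) and 2.76-fold lower on SD. BMP response genes showed 4 higher and 5 lower on HFD, and 4 higher and 2 lower on SD. Bambi, a decoy receptor, was 2.22-fold higher on HFD and 2.15-fold higher on SD, and Msx1 was 3.24-fold lower on HFD and 3.49-fold lower on SD.

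In GENCODE M21 the exons of 13 members overlap a gene on the opposite strand. Among them are Acvr2a with Orc4, Bmp6 with Txndc5, Chrd with Thpo, Fst with Gm47040 and Fstl3 with Prss57. The exons of 2 members, Smad5 and Tgfbr3, overlap a gene on the same strand. The libraries mark the strand, but no source used here gives the strand setting of the counting, so reads of these pairs may not be separated.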

How the data were processed

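RNA of 12 libraries was measured by poly(A) RNA-seq with strand-marking, single-end reads, per the labels' protocols. The authors deposited raw gene counts, and the submitters' processing notes name TopHat, HTSeq and the mm9 build without versions or a strand setting. Rows that name no gene were left out of library sizes: reads without a feature were 3.53 to 5.57%, ambiguous ones 1.71 to 1.95% and non-unique ones 14.98 to 20.81% of the total of all rows, genes included.

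The members and lists were chosen with earlier results of these data known. Counts were fitted once for 12 libraries in 4 groups with edgeR 4.0.16 in R 4.3.3 (filterByExpr, which removed 132 of 14398 genes, trimmed-mean scaling, robust quasi-likelihood test), with Benjamini-Hochberg adjustment over 14266 genes. Counting intervals and floors cover counting error only. The p-values set group differences against the spread between pooled libraries, estimated over all 4 groups. A permutation of single values cannot go below p = 0.1 with 3 against 3. The fit was tested on simulated data. Alternatives used limma 3.58.1 and DESeq2 1.42.0, other scalings and filters, subsets of libraries and the replicate number as a block.

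Any member could be named, with full statistics for those past the threshold with diet and for up to 8 in each direction between depots. Per list and comparison up to 4 genes with the lowest adjusted p were given values, besides Tgfbi, Id1, Id3 and Mki67; other list genes were named after their values were seen. Same-numbered VWAT_SD and SWAT_SD libraries deviated together from their group means (correlations of 0.177, 0.178 and 0.398). The labels do not say that these numbers pair samples, so any pairing comes from the data. The reported tests used no pairing, and the replicate number entered only as a block among the alternatives. Exon lengths are from GENCODE M21, another build than mm9, so no gene coordinates of the counts are given. Some genes that entered the counts are not reported here by name or drawn. Figures were drawn with matplotlib 3.10.9 in Python 3.11.15.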

Additional observations from a re-analysis of the deposited data

How the results depend on the processing

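With HFD in VWAT, 6 members and 1246 of all genes passed in a fit of only the 6 libraries compared, against 11 and 2228, and 4054 genes passed without VWAT_HFD replicate 3 and SWAT_HFD replicate 2 together. With HFD in SWAT, DESeq2 called 2 members and the 6-library fit 1, against 0. Of all genes, 159 passed in SWAT, against 263 with library size alone, 54 at a mean CPM of at least 5, 536 with DESeq2, 12 with limma voom, 352 with 6 libraries, 247 with the replicate block and 249 without both libraries named above. The interaction, with 0 genes called, gave 35 with DESeq2, 1 with the replicate block and 46 without both libraries. Between depots, 3669 genes passed on SD and 2347 at a mean CPM of at least 5; on HFD 3830 passed, against 6954 with library size alone and 2487 at a mean CPM of at least 5. Furin on HFD had a log2 difference, VWAT minus SWAT, of 0.265 with library size alone, against -0.02. The cause was not tested for any of these. Leaving out each library in turn gave 4 to 16 members with HFD in VWAT, 0 to 2 in SWAT, 0 in the interaction, 20 to 23 between depots on SD and 18 to 26 on HFD; of all genes it gave 757 to 4266, 0 to 615, 0 to 135, 2865 to 4411 and 2852 to 4366 in that order. Same-numbered libraries of the other group pairs had correlations of -0.017, 0.027 and 0.067 (VWAT diets), 0.015, 0.123 and 0.125 (SWAT diets) and -0.075, 0.184 and 0.07 (depots on HFD). These libraries were not paired in the reported tests either. Under the block Inhbb lost its call and Tgfbr1 gained one (adjusted p = 0.0367) with HFD in VWAT, and Smad2 lost and Tgfb3 gained one (adjusted p = 0.0473) between depots on HFD; besides these and Tgfbr1 on SD it changed no member's call. Counts of 1 to 7 limit Grem1 in SWAT and on HFD.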
